A study of Mus musculus with 3 samples.

Results

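The genes of 6 subunits of the AP-1 transcription factor, Jun, Junb, Jund, Fos, Batf and Fosl2, were examined for binding of BACH2 and of JunD in mouse induced regulatory T cells (iTreg cells). These are regulatory T cells made in culture from CD4+ T cells. The members are all intervals of the BACH2 and the JunD peak list that touch a fixed window of the mm9 genome around each gene. The windows are 60 to 130 kb long and 550 kb in sum. They held 29 of the 14370 peaks of the series, of which 12 were among the 9133 BACH2 peaks and 17 among the 5237 JunD peaks. The rule uses genomic position alone, no measured value, but the genes, windows and lists were chosen with earlier results of these data known.

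Binding was mapped by ChIP-seq, the sequencing of DNA recovered with an antibody to the factor, in wild-type C57BL/6 cells from the spleen of mice aged 8 to 12 weeks. All libraries share the same culture, 4 days on anti-CD3ε and anti-CD28 with TGF-β. The 3 libraries, 1 per group, are of BACH2 ChIP, of JunD ChIP and of input, and only the peak lists of the ChIP libraries were used here. A pair of antibody catalogue numbers follows the name JunD in the labels, which do not assign them. With 1 library per factor there is no replicate error, so every count below describes these libraries and no difference was tested. Read counts are not in the peak lists, so the depth behind each peak is unknown. The lists hold no expression data, and the identity of the cells could not be checked against marker genes.

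AP-1 is a family of dimers of basic leucine zipper proteins. Proteins of the JUN group (Jun, Junb, Jund) pair with each other or with proteins of the FOS group (Fos, Fosl2), whereas FOS proteins need a JUN partner. Batf also pairs with JUN proteins, and in T cells such dimers bind together with IRF4. The dimers recognise a short palindrome, TGANTCA with C or G at the open position. BACH2 is a repressor of the same superfamily, which binds extended versions of that sequence as a dimer with small MAF proteins and restrains effector programmes in T cells. JunD is the product of Jund, so its ChIP reads AP-1 binding near genes of AP-1 itself, its own gene included.

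Promoter sequences are shown because AP-1 genes are known to hold elements for AP-1 and related factors near their starts. RefSeq promoter windows, 250 bases before and 50 after the annotated start, were found for all 6 genes on GRCm38.p6. That build is not the build of the peaks, so no peak was placed on a promoter. All 6 genes lay on the chromosome of their window in RefSeq. TGANTCA was searched on both strands with any base at the open position, so A and T counted as well as C and G. It was in none of the 6 promoter windows, against 7.81% of the 32851 promoter windows of the table. Neither TGACGTCA, the full cAMP response element (1.79% of all promoters), nor TGANTCA directly preceded by TGC, a form that MAF dimers favour (0.423%; always also a TGANTCA), was found. TGACATCA, a variant AP-1 element, was in the promoter of Jun, starting 45 bases before its annotated start, and in 3.62% of all promoters. TGACGT, which is contained in TGACGTCA and was searched after the sequences had been seen, was in the promoters of Fos (66 bases before the start) and Batf (98 bases before the start), and in 7.51% of all promoters. The 3 promoters with a match are shown 5′ to 3′ on the coding strand, with the match in capitals. They lie at chr4:95052173-95052472 (minus strand), chr12:85473640-85473939 (plus strand) and chr12:85686470-85686769 (plus strand) of GRCm38.p6. A match describes these letters and is not evidence of binding, and a missing match covers only these 300 bases.
Jun: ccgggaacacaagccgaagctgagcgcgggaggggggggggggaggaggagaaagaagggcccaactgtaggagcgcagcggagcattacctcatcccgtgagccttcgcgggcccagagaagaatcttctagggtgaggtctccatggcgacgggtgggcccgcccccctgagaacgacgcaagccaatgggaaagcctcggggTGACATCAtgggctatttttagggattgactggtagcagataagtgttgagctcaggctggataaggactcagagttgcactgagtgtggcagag
Fos: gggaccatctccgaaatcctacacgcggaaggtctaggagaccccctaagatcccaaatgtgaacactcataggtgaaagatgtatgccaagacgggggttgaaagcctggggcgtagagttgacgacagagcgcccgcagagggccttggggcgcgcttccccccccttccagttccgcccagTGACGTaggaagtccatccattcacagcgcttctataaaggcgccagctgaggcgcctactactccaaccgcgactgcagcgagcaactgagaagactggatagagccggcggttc
Batf: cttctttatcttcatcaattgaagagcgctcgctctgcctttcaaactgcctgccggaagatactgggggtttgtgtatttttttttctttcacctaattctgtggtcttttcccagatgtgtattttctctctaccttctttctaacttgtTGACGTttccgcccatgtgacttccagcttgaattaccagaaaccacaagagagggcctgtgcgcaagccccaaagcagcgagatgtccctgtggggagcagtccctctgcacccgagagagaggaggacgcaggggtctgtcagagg

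Both factors had peaks in 5 of the 6 windows, those of Jun, Junb, Fos, Batf and Fosl2, and the Jund window had JunD peaks and no BACH2 peak. As a background, consecutive tiles of 100 kb over all chromosomes held a BACH2 peak in 18.4%, a JunD peak in 12.3% and a peak of each in 9.24%. Tiles include stretches without genes, whereas each window was placed on a gene. Peaks were denser in the windows than over the chromosomes, at 21.8 BACH2 and 30.9 JunD peaks per Mb in the windows, against 3.58 and 2.05 per Mb over the whole lists. In stretches of equal length on both sides of the windows, which came to 1050 kb with each base counted once, there were 17.1 BACH2 and 4.76 JunD peaks per Mb. Of the 18 BACH2 and 5 JunD peaks beside the windows, 8 and 3 lay in the 130 kb between the Fos and Batf windows. Without that stretch, left out after the values were seen, there were 10.9 BACH2 and 2.17 JunD peaks per Mb beside the windows. The differences were not tested, and the windows were chosen with earlier results of these data known.

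**Figure D1:**
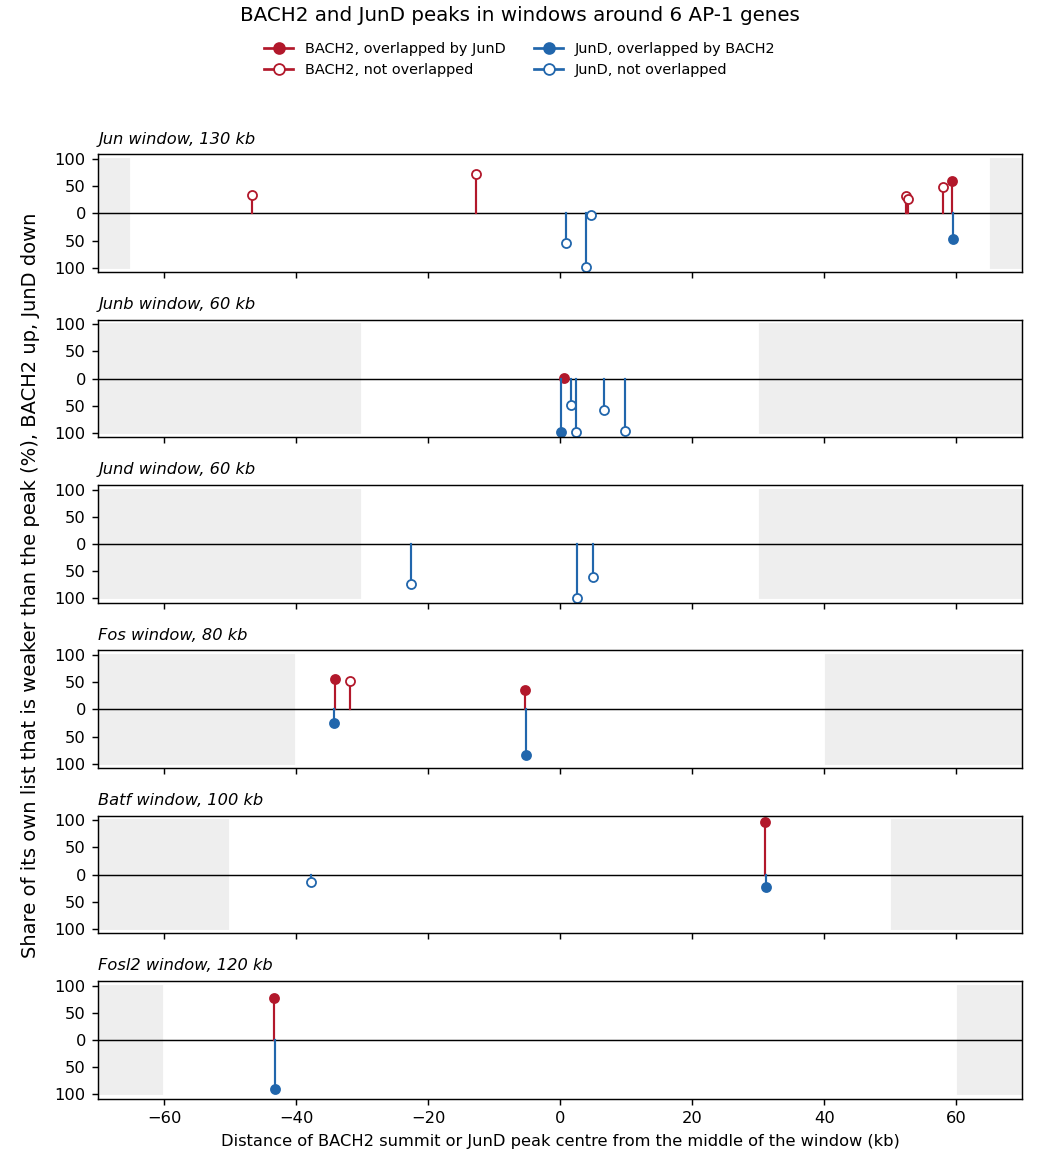
Peaks in the 6 windows, by distance of the BACH2 summit or the JunD peak centre from the middle of the window (x axis, kb; white is the window). The y axis gives the share of a peak's own list that is weaker than the peak (%), BACH2 upwards and JunD downwards; filled points overlap a peak of the other factor. The strongest JunD peaks of the Jun and Jund windows have no BACH2 point above them, while the Batf window pairs a strong BACH2 with a weak JunD peak.

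**Figure D2:**
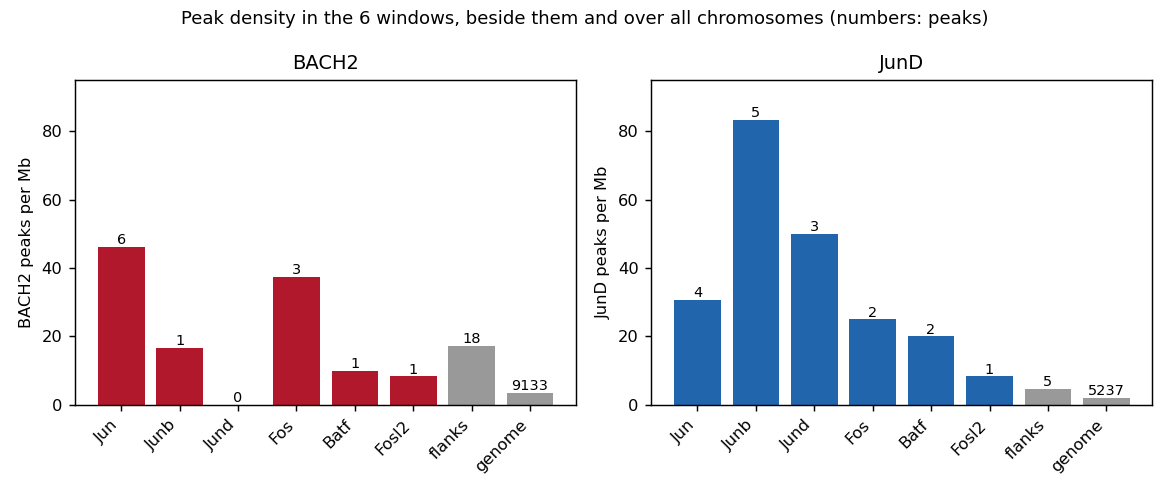
Peaks per Mb of BACH2 (left) and JunD (right) in each window, in the stretches beside the windows (flanks) and over all chromosomes (genome), with the number of peaks above each bar. JunD peaks as deposited reached 83.3 per Mb in the Junb and 50 per Mb in the Jund window, and with peaks at most 1 kb apart joined both windows have 50 per Mb. BACH2 peaks reached 46.2 per Mb in the Jun window.

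The strength of a peak can only be read within its own list, because the authors' lists carry different scores. Each BACH2 peak comes with the caller's fold enrichment and a −log10 q, and the second was used for ranking. JunD peaks were ranked by their score, whose scale is not stated. Among the 12 BACH2 peaks, −log10 q ran from 2.45 to 93.5 with a median of 11.9, against a median of 11.8 in the whole list. Only 1 of the 12 was in the strongest quintile of its list, which holds 20% of all BACH2 peaks. Among the 17 JunD peaks, the score ran from 51.7 to 489 with a median of 95.9, against a median of 81.6 in the whole list. Of these 17, 7 were in the strongest quintile, which holds 20% of all JunD peaks. By −log10 q, BACH2 peaks in these windows were thus centred on the middle of their list, and JunD peaks included several near the top of theirs. That centre moved with the setting. The BACH2 peaks were stronger than a median of 43.1% of their list by fold enrichment. In windows narrowed by 10 kb on each side, that median was 34.9% by −log10 q.

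**Figure D3:**
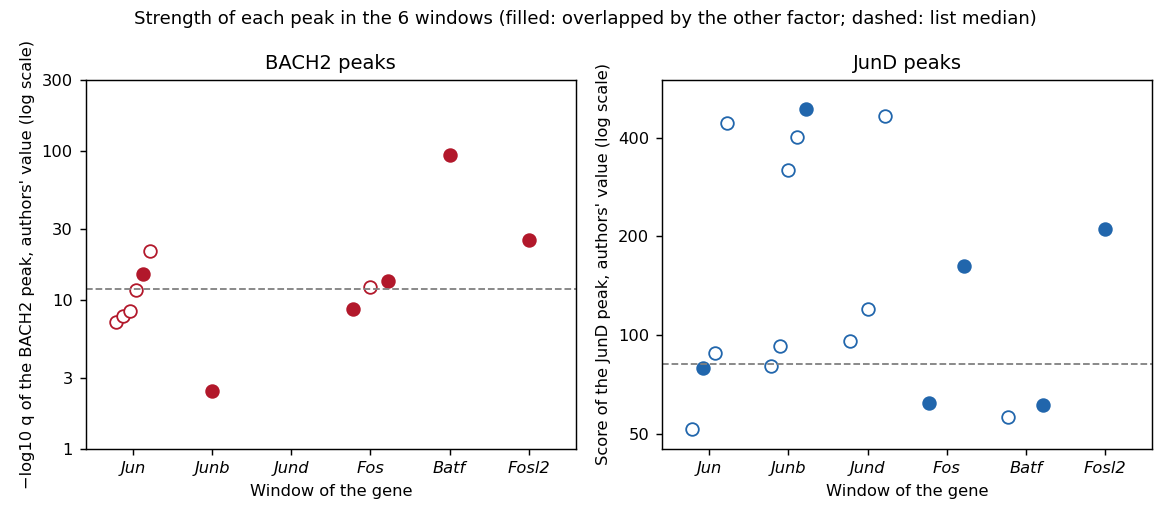
Strength of each peak by gene window, as the authors' −log10 q for BACH2 (left) and the authors' score for JunD (right), both on log axes; dashed lines mark the medians of the whole lists, 11.8 and 81.6. Filled points overlap a peak of the other factor, and points of a window are spread sideways in order of strength. The Batf window holds the highest BACH2 point (93.5), and JunD scores of 318 or more occur in the Jun, Junb and Jund windows.

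Jun encodes c-Jun, the founding member of the JUN group. The strongest JunD peak near Jun had no BACH2 peak on it, and the factors overlapped at a weaker site near the edge of the window. The 130 kb window on chromosome 4 (94650000 to 94780000) held 6 BACH2 peaks and 4 JunD peaks. At least as many were found in 1.1% (BACH2) and 1.32% (JunD) of the 19596 tiles of that length. Of the JunD peaks, 3 lay within 4.56 kb of the middle of the window. The strongest JunD peak of the window (94718540 to 94719263, 724 bp) had a score of 443 and ranked 94 of 5237. It was flanked by JunD peaks at 94715666 to 94716116, with a score of 87.9, and at 94719421 to 94719697, with a score of 51.7, close to the lowest score in the list, 50. No BACH2 peak touched this group, and the BACH2 summit nearest to the centre of the strongest JunD peak was 16.6 kb away. A gap of 157 bp separated the strongest JunD peak from the JunD peak of score 51.7. With peaks at most 1 kb apart joined, the window has 3 JunD regions in place of 4. The shares of tiles count peaks as deposited. The strongest BACH2 peak of the window (94702169 to 94702398) was enriched 8.43-fold, with a −log10 q of 21.2 and rank 2568 of 9133, with the nearest JunD centre 13.6 kb away. A further 4 BACH2 peaks lay together at the far end, 52.3 to 59.3 kb from the middle, with folds from 4.16 to 6.02. The last of these (94774195 to 94774519, 6.02-fold, −log10 q 15.0) lay inside the fourth JunD peak (94774128 to 94774919, score 79.1). This shared site was stronger than 59.9% of the BACH2 list and than 47.3% of the JunD list. The remaining BACH2 peak, at 94668201 to 94668420, had a fold of 6.12.

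Junb encodes JunB, a JUN protein that in T cells is a common partner of Batf. The Junb window held several JunD peaks close together, and its BACH2 peak was among the weakest of the list. The 60 kb window on chromosome 8 (87470000 to 87530000) held 5 JunD peaks and 1 BACH2 peak. At least as many JunD peaks, counted as deposited, were found in 0.193% of 42471 tiles of 60 kb, and at least 1 BACH2 peak in 12.9%. The 5 JunD peaks lay within 11.4 kb and covered 6216 bp in sum. The first (87499158 to 87501143) was 1986 bp wide, with a score of 489, rank 75 of 5237 and the highest among the 17. The peak at 87501855 to 87503005 had a score of 401 and that at 87509019 to 87510593 a score of 318. The remaining 2, at 87501244 to 87501844 and at 87506219 to 87507121, had scores of 80.4 and 92.6. Gaps of 100 and 10 bp separated the first 3 peaks, and these join into 1 region when peaks at most 1 kb apart are joined. The Junb and Jund windows, which are of equal length, then have 3 JunD regions each. The BACH2 peak (87500394 to 87500692) lay inside the first JunD peak, at 2.68-fold enrichment and −log10 q 2.45. It ranked 9018 of 9133, stronger than 1.19% of its list. In RefSeq order the coding genes next to Junb are Prdx2 and Hook2. No mm9 annotation was used, so the peaks were not assigned to Junb or to a neighbour. The same holds for the peaks of the other windows and the genes that name them.

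Jund encodes JunD, the immunoprecipitated factor. A strong JunD peak lay in the window of its own gene, and no BACH2 peak did. The 60 kb window on chromosome 8 (73190000 to 73250000) held 3 JunD peaks, and at least as many were found in 0.878% of tiles of that length. The strongest (73221920 to 73223122, 1203 bp) had a score of 464 and ranked 85 of 5237. The peak at 73224595 to 73225309 had a score of 95.9, and that at 73196813 to 73197935 a score of 120. BACH2 had no peak in the window, as in 87.1% of tiles of that length. The BACH2 summit nearest to the strongest JunD peak was 88.2 kb from its centre, and the nearest BACH2 peaks lay 55.6 kb below (73134177 to 73134403, 4.82-fold) and 82.2 kb above (73332199 to 73332408, 8.28-fold) the edges of the window. BACH2 binding under the caller's threshold would not appear in the list. In RefSeq order, Lsm4 and Iqcn are the coding genes next to Jund.

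Fos encodes c-Fos, an immediate early protein induced by antigen receptor signalling. Both factors had peaks at the same places near Fos, where each JunD peak of the window was overlapped by BACH2. The 80 kb window on chromosome 12 (86780000 to 86860000) held 3 BACH2 and 2 JunD peaks, numbers reached by 3.0% and 3.29% of 31850 tiles of that length. The stronger JunD peak (86814479 to 86815084) had a score of 163 and ranked 801 of 5237. The BACH2 peak inside it (86814514 to 86814806) had a fold of 4.68 and a −log10 q of 8.65. At the other site the JunD peak (86785522 to 86785992) had a score of 61.9, and the BACH2 peak inside it (86785661 to 86785869) had a fold of 5.30 and a −log10 q of 13.4, the strongest of the window. The third BACH2 peak (86788043 to 86788304) had a fold of 5.14 and a −log10 q of 12.2, with the nearest JunD centre 2.43 kb away. At these shared sites the order of the factors was opposite, since the stronger JunD peak met the weaker BACH2 peak.

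Batf encodes BATF, an AP-1 protein without a transactivation domain that is needed for several T helper programmes. The Batf window held the strongest BACH2 peak of the 6 windows, on a weak JunD peak. The 100 kb window on chromosome 12 (86990000 to 87090000) held 1 BACH2 and 2 JunD peaks, numbers reached by 18.4% and 4.24% of 25480 tiles. The BACH2 peak (87070865 to 87071213) was enriched 20.6-fold with a −log10 q of 93.5, and at rank 298 of 9133 it was the only BACH2 peak of the 12 in the strongest 5% of the list. The JunD peak that overlapped it (87070927 to 87071265) had a score of 61.1, rank 4018 of 5237, stronger than 23.3% of its list. The other JunD peak (87001924 to 87002359) had a score of 56.3 and no BACH2 peak. The order of strength was the reverse of that in the Junb window, where a JunD peak stronger than 98.6% of its list met a BACH2 peak stronger than 1.19%. Over the whole lists, 252 overlapping pairs had a BACH2 peak of the strongest 5%, and in 37 of them (14.7%) the JunD peak was among the weakest 25%, as at Batf. Conversely, 442 pairs had a JunD peak of the strongest 10%, and in 41 of these (9.28%) the BACH2 peak was in the weakest 10%, as at Junb. These cuts were not among the planned comparisons and differ between the 2 counts. The Junb pair lay well beyond its cuts, so 9.28% is not the share of pairs as extreme as that pair.

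Fosl2 encodes Fra-2, a FOS protein that lacks the transactivation domain of c-Fos. The only peak of each factor near Fosl2 lay at the same site. The 120 kb window on chromosome 5 (32390000 to 32510000) held 1 BACH2 and 1 JunD peak, and at least 1 peak was found in 20.7% (BACH2) and 14.1% (JunD) of 21231 tiles of that length. The BACH2 peak (32406542 to 32406821) had a fold of 9.46 and a −log10 q of 25.1, rank 2151 of 9133. The JunD peak (32406417 to 32407011) had a score of 211, rank 496 of 5237. This was the only site of the 6 windows at which both peaks were in the stronger 50% of their lists.

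Overlap of the factors was then counted over all members. A JunD peak covered at least 1 bp of 6 of the 12 BACH2 peaks, or 50% (Wilson 95% interval 25.4 to 74.6, for the counting of peaks only), against 29.3% of the whole BACH2 list. A BACH2 peak covered 6 of the 17 JunD peaks, or 35.3% (17.3 to 58.7), against 48.8% of the whole JunD list. The intervals treat peaks as separate draws, whereas some members are close neighbours, and the shares were not tested against those of the lists. The overlaps were spread unevenly over the genes. In the windows of Jun, Junb and Jund, 2 of 7 BACH2 and 2 of 12 JunD peaks were overlapped, and in those of Fos, Batf and Fosl2, 4 of 5 BACH2 and 4 of 5 JunD peaks. Of those 7 BACH2 peaks, 6 lay in the Jun window, where 1 was overlapped. The only BACH2 peak of the Junb window was overlapped, and the Jund window had none. That split of the JUN group from the other genes was made with the values known, and the difference was not tested.

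In these windows, JunD peaks of the strongest 5% of their list were mostly without BACH2. The windows held 5 JunD peaks of the strongest 5% of the list, of which 3 lay in the Junb window and 1 each in the Jun and Jund windows. BACH2 overlapped 1 of these 5, the Junb peak of score 489, against 78.6% of all JunD peaks of the strongest 5%. The windows also held 5 JunD peaks wider than 1 kb, 3 in the Junb and 2 in the Jund window, whereas 9.26% of the JunD list is that wide. BACH2 overlapped 1 of these 5 as well, against 61.4% of all JunD peaks wider than 1 kb. These sets share 4 peaks. Neither cut was among the planned comparisons, and the differences from the list were not tested. The 5 strongest peaks come from 3 loci, and the 3 in the Junb window are neighbours, so they are not independent of each other. Over all 17 JunD peaks, those overlapped were stronger than a median of 66.0% of the list, and those not overlapped than 60.4%. The strongest JunD peaks of the Junb, Fos, Batf and Fosl2 windows were overlapped by BACH2, and those of the Jun and Jund windows were not.

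**Figure D4:**
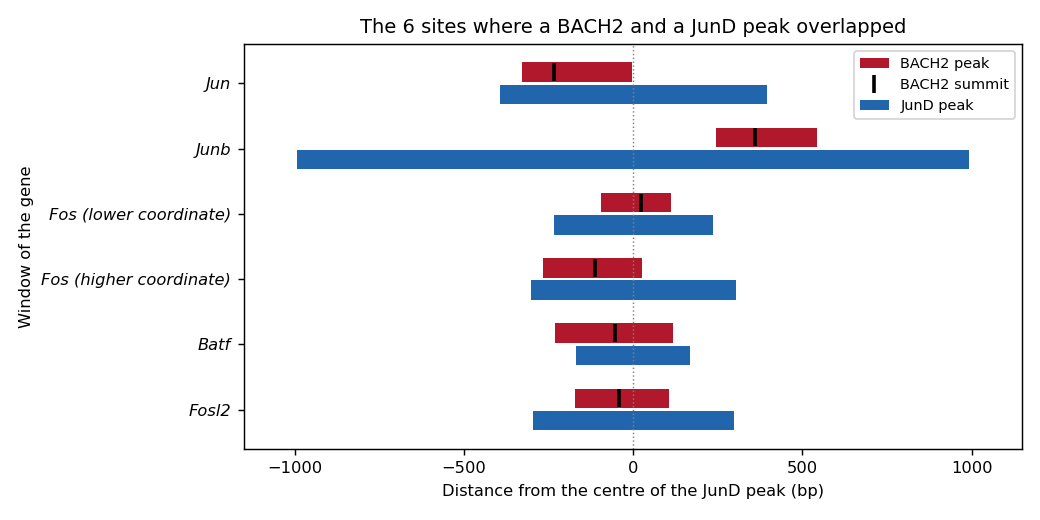
Extent of the overlapping peaks at the 6 shared sites, as distance from the centre of the JunD peak (x axis, bp), with the BACH2 peak above, its summit as a black mark, and the JunD peak below. Summits lie 22 to 113 bp from the centre at the Fos, Batf and Fosl2 sites, and 234 and 359 bp away at the Jun and Junb sites.

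At the 6 shared sites the BACH2 summit and the JunD centre were apart by 22 and 113 bp (Fos), 54 bp (Batf), 42 bp (Fosl2), 234 bp (Jun) and 359 bp (Junb). The median of the 6 was 83.5 bp, against 55 bp over all 2677 overlapping pairs (interquartile range 24 to 122 bp). The Fos, Batf and Fosl2 distances fell within that interquartile range or just under it, and those at Jun and Junb were longer. At the Junb site the JunD peak was 1986 bp wide, and the summit lay well inside it. The BACH2 peak lay wholly within the JunD peak at 5 of the 6 sites. The exception was Batf, where the JunD peak was 339 bp wide, narrower than the BACH2 peak of 349 bp, and covered 82.2% of it. Among the 6 BACH2 peaks without overlap, the nearest JunD centre was 1.60 to 47.6 kb from the summit (median 7.04 kb). Among the 11 JunD peaks without overlap, the nearest BACH2 summit was 1.03 to 90.6 kb from the centre (median 16.6 kb).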

How the data were processed

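Peak lists of a BACH2 ChIP and a JunD ChIP library were analysed. Data of the input were not used here. Per the submitters' processing notes, the aligner was Bowtie 0.12.9 and the build mm9 (NCBIM37). How peaks were called, with which control and version, is not stated in labels or headers. The BACH2 list the authors deposited gives each peak a fold enrichment, a −log10 p, a −log10 q, a summit and an integer score that was not used. The JunD list the authors deposited gives a single score, without scale or summit, and its peaks were placed by their middle. The files hold no counts, and the depth per sample is unknown.

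Members were peaks sharing at least 1 bp with an mm9 window. The genes, windows and lists were chosen with earlier results of these data known. Starts are counted from 1. Ranks are by −log10 q (BACH2) or score (JunD), and percentages weaker are over the whole list. Tiles ran from the first to the last peak of each chromosome, with peaks counted by summit or centre. All 6 genes are named. In each window the strongest peak of each list and every overlapping pair were given in full, and all peaks where a list had at most 4. Further family genes were not placed, because no mm9 annotation was used. Protein sequences were not used. Neighbouring genes are from the order of coding genes in RefSeq GRCm38.p6. Interval counting was tested on simulated data and returned the planted overlaps. Alternatives changed the window edges, score threshold, overlap, peak width, joining of peaks and tile length. Python 3.11.15, numpy 2.4.6, pandas 2.3.3, scipy 1.17.1 and matplotlib 3.10.9 were used.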

Additional observations from a re-analysis of the deposited data

How the results depend on the processing

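Narrowing each window by 10 kb on each side left 8 BACH2 and 14 JunD peaks with 4 of each overlapped, and widening it by 20 kb gave 14 and 17 with 6 of each. The Jun site and the lower Fos site of overlap lie within 10 kb of an edge and were lost when the windows were narrowed. Keeping only the stronger 50% of each list left 6 BACH2 and 11 JunD peaks, with 1 of each overlapped (Fosl2) and both factors in 3 windows. Requiring 50% of both peaks left 1 of each overlapped, and a summit within 100 bp of the centre left 3 of each. At the sites lost under the 50% rule, the BACH2 peak lay wholly inside the JunD peak and covered 15.1 to 48.3% of it. Median widths over the whole lists were 267 bp (BACH2) and 553 bp (JunD). Peaks set to 200 bp gave 4 of each, and peaks at most 500 bp apart 6. Peaks less than or equal to 1 kb apart, once joined, gave 11 BACH2 and 14 JunD regions with 6 of each overlapped, and 3 JunD regions in place of 5 in the Junb window. With the Fos and Batf windows joined across the stretch between them, an alternative added after the data were seen, there were 20 BACH2 peaks and 20 JunD peaks, with 8 of each overlapped. Leaving that stretch out of the flanks, also added then, gave 10.9 BACH2 and 2.17 JunD peaks per Mb beside the windows, in place of 17.1 and 4.76. The BACH2 peaks were stronger than a median of 50% of their list, 43.1% by fold enrichment and 34.9% in the narrowed windows. The JunD peaks were stronger than a median of 60.4% of their list, wider than 73.6% when ranked by width, and stronger than 72.6% in the narrowed windows. Tiles with a peak were 11.3% (BACH2) and 7.13% (JunD) at 50 kb and 28.1% and 20.3% at 200 kb, a change fixed by tile length. The Jund window had no BACH2 peak under any of the 4 alternatives that changed windows, threshold or joining, but this outcome was fixed beforehand. Narrowing, the threshold and joining could not add a peak there. The widening by 20 kb did not reach the nearest BACH2 peak, 55.6 kb from the edge. No paired analysis was possible because a factor had only 1 library. Binding too weak to pass the peak callers is missing here, at a depth that is not known.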

Other observations

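Between the Fos and Batf windows lie 130 kb of chromosome 12 that belong to neither. In RefSeq order the only coding gene between Fos and Batf is Jdp2, which encodes a JUN dimerization protein that represses AP-1 targets. The stretch between the windows contained 8 peaks of BACH2 and 3 of JunD (61.5 and 23.1 per Mb), more BACH2 peaks than any of the 6 windows. Its strongest BACH2 peak (86915787 to 86916180) had a fold of 9.53 and a −log10 q of 34.9 and was not overlapped by JunD. Another BACH2 peak (86911144 to 86911492, 10.1-fold) was overlapped by a JunD peak of score 58.7, and a further one (86965622 to 86965950, 6.17-fold) by a JunD peak of score 145. The third JunD peak (86933879 to 86934405) had a score of 160 and no BACH2 peak. In all, 6 of the 8 BACH2 peaks, the strongest included, were without JunD, and 4 of the 8 lay between 86910661 and 86916180. The stretch was examined after the values of the windows were seen, no peak was assigned to Jdp2, and its difference from the windows was not tested.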
